A study of Dichomitus squalens with 6 samples.

Results

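A set of 107 genes of the white-rot fungus Dichomitus squalens was followed that had higher transcript levels on xylose than on L-rhamnose and on cellobiose. They were selected on measured levels, from a gene catalog of 15295 models on 406 scaffolds. Of these models, 10299 had at least 2 exons, a coding length above 400 bases and a whole expected count in all 6 libraries, and did not lie on scaffolds 52, 68 or 77. The levels used for the choice were mean FPKM + 1 per sugar, where FPKM is the fragment count scaled to gene length and library size. A level of at least 10 on xylose left 7266 models. A level on xylose at least 2 times that on both other sugars left 193 of them. The other 2 sugars had to lie under 2-fold apart, which left 133, and both xylose libraries had to lie above the 4 others, which left 107. The choice used every contrast with xylose, so the differences given below for these genes describe them and carry no test. Whether a gene of the set passed a test's threshold is likewise given as a description, and nothing is read from it. They are called xylose-high genes, because the data go against the word only: all 107 had a count above 0 in every library, and 56 had a mean of at least 20 FPKM on both other sugars.

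Mycelium of the wild type, monokaryotic strain CBS 464.89 had grown for 5 days at 28 °C on plates with 1.5% agar. All plates held a low-nitrogen medium with asparagine and succinate, and 25 mM of xylose, L-rhamnose or cellobiose was added. Each sugar had 2 libraries of total RNA. The labels do not say that they came from separate plates or cultures, so the spread between them may be technical. A plate with none of the 3 sugars was not analysed here, and a higher level on xylose is thus relative to the other 2 sugars. Total expected counts per library were 7979043 to 8126006 on xylose, 7306517 to 7736271 on L-rhamnose and 7898563 to 8004353 on cellobiose.

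Xylose is the backbone sugar of xylan, a main hemicellulose of hardwood and grasses. Fungi commonly reduce it to xylitol, oxidise xylitol to xylulose and phosphorylate xylulose, which then enters the pentose phosphate pathway. In the ascomycetes Aspergillus niger and Trichoderma reesei the transcription factor XlnR or its counterpart Xyr1 turns on genes for xylan breakdown and xylose use when xylose is present. L-rhamnose is a sugar of pectin, and cellobiose is the disaccharide released from cellulose. The files give gene models by position and number and pair none of them with a product name. No role is therefore given for any of the genes, and they are described by their place, their levels and their structure.

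The xylose-high genes took a larger share of the reads on xylose. They held 2.20% and 2.07% of all expected counts in the xylose libraries, against 0.565% and 0.561% on L-rhamnose and 0.556% and 0.710% on cellobiose. Leaving out the 10 genes with the highest xylose level, the shares were 1.44% and 1.32% on xylose, 0.379% and 0.370% on L-rhamnose and 0.377% and 0.490% on cellobiose. The choice fixes the direction of these shares. The median gene of the set had 95.0 and 75.6 FPKM on xylose, against 22.9 and 21.6 FPKM on L-rhamnose and 22.0 and 32.2 FPKM on cellobiose. The median of all 10299 models of the same structure lay between 22.2 and 24.4 FPKM in the 6 libraries. The median member thus stood near the median of these models on L-rhamnose and in 1 cellobiose library. It stood somewhat above it in cellobiose replicate 2 and well above it on xylose. Unlike the members, these models did not have to reach the level of 10 on xylose. In such bulk samples, a change in the number of expressing cells and a change in transcript per cell cannot be told apart.

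Mean levels on xylose spanned 10.5 to 1877 FPKM with a median of 87.4 FPKM. On L-rhamnose the means spanned 2.06 to 445.2 FPKM with a median of 23.9 FPKM, and on cellobiose 3.15 to 551.4 FPKM with a median of 26.6 FPKM. On xylose 47 genes reached a mean of 100 FPKM and 7 reached 500 FPKM, while 9 stayed under 20 FPKM. None of the 107 had means under 1 FPKM on both other sugars, and 6 had means under 5 FPKM on both. The set therefore held mostly genes with a measurable level on all 3 sugars, and the lowest count of any of them in any library was 8.

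The size of the difference was modest for most. The ratio of xylose to the higher of the other 2 sugars, in mean FPKM + 1, had a median of 2.66 and a range of 2.01 to 13.1. It was under 2.5 in 44 genes and under 3 in 64, at least 3 in 43, at least 5 in 12 and at least 10 in 2. The ratio to L-rhamnose had a median of 3.79 and a range of 2.05 to 19.8. The ratio to cellobiose had a median of 2.99 and a range of 2.01 to 13.1. Cellobiose was the higher of the other 2 sugars in 76 of the 107 genes, or 71.0%, and L-rhamnose in 31. Among the 6171 models at the level floor of 10 whose other sugars lay under 2-fold apart, cellobiose was the higher in 58.7%.

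**Figure D1:**
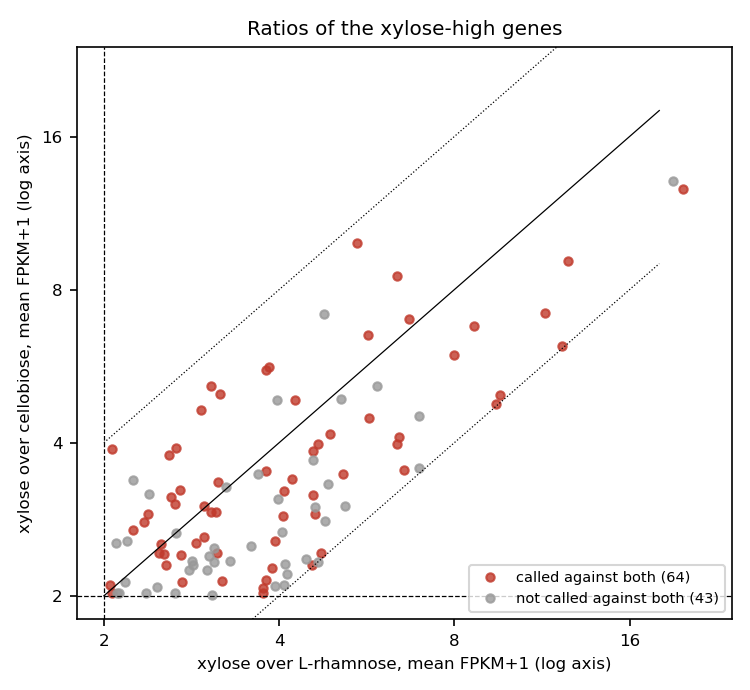
Ratio of xylose to L-rhamnose (x axis) against ratio of xylose to cellobiose (y axis) in mean FPKM + 1, both on log axes, 1 point per xylose-high gene. The solid line marks equal ratios, the dotted lines a 2-fold difference between L-rhamnose and cellobiose and the dashed lines the ratio of 2 used for the choice; most points lie below the solid line and near the dashed lines, and 2 lie above 10 on both axes.

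The gene with the greatest ratio was gene_5605, on the minus strand of scaffold 15 at 217884-219087, with 4 exons and 771 coding bases. It had 765 and 2051 FPKM on xylose, 62.6 and 83.6 FPKM on L-rhamnose and 11.6 and 202 FPKM on cellobiose. Both xylose libraries lay above the other 4, the lower by 3.79 times, and the cellobiose libraries lay further apart than those of either other sugar. The fitted log2 difference was 3.83 ± 1.14 (SE) for xylose minus cellobiose and 4.40 ± 1.18 for xylose minus L-rhamnose, standard errors more than 3 times the median of the set. Without cellobiose replicate 1 the log2 difference from cellobiose was 2.92, and without cellobiose replicate 2 it was 7.03. With all 6 libraries this gene did not pass edgeR's threshold against cellobiose, and it passed without cellobiose replicate 2 and, at a log2 difference of 4.37, without xylose replicate 1. Against L-rhamnose it passed, but not without L-rhamnose replicate 1 (4.18) or replicate 2 (4.65).

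The gene with the highest level was gene_1718, on the minus strand of scaffold 2 at 1040584-1041764, with 3 exons and 726 coding bases. It had 1728 and 2027 FPKM on xylose, 351 and 539 FPKM on L-rhamnose and 508 and 595 FPKM on cellobiose. The xylose libraries lay close together and far above the others, on a background that was itself high. The log2 difference was 1.89 ± 0.28 (SE) for xylose minus cellobiose and 2.21 ± 0.28 for xylose minus L-rhamnose. It passed edgeR's threshold against both, but not against cellobiose without cellobiose replicate 1 (1.78) or replicate 2 (2.01).

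Some genes combined a large ratio with libraries that lay close together. At 533952-534772 on scaffold 2, a gene of 648 coding bases had 586 and 398 FPKM on xylose, 27.9 and 19.9 FPKM on L-rhamnose and 36.7 and 39.4 FPKM on cellobiose. Its lower xylose library was 10.1 times the highest other library, the widest gap in the set, and its log2 differences were 3.82 ± 0.27 from cellobiose and 4.51 ± 0.28 from L-rhamnose. A 12-exon gene on scaffold 78 at 37336-39555 had 251 and 365 FPKM on xylose, 23.4 and 23.9 FPKM on L-rhamnose and 27.8 and 38.1 FPKM on cellobiose. These gave log2 differences of 3.34 ± 0.26 from cellobiose and 3.84 ± 0.27 from L-rhamnose, with no overlap between sugars. Scaffold 47 carried at 149769-150591 a short gene of 618 coding bases with 710.1 and 587 FPKM on xylose, 50.1 and 54.0 FPKM on L-rhamnose and 92.7 and 115 FPKM on cellobiose. Here L-rhamnose lay below cellobiose by a log2 difference of 1.01 ± 0.20, so its 3 sugars were graded within the 2-fold limit.

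The other genes among the 10 greatest ratios had lower levels or wider replicates. The gene on scaffold 18 at 339948-342887 had 221 and 295 FPKM on xylose, 22.9 and 40.0 FPKM on L-rhamnose and 33.5 and 51.4 FPKM on cellobiose. On scaffold 57 at 66600-68181, the values were 51.8 and 26.3 FPKM on xylose, 3.03 and 4.22 FPKM on L-rhamnose and 4.48 and 5.34 FPKM on cellobiose. That gene reached a ratio of 6.78 at a low level, rank 82 of 107 by its mean on xylose. The gene at 98186-99927 of scaffold 106 had 60.4 and 19.0 FPKM on xylose, 6.07 and 4.11 FPKM on L-rhamnose and 3.98 and 5.63 FPKM on cellobiose. At 100381-101865 of scaffold 24, xylose gave 158 and 40.4 FPKM, L-rhamnose 14.8 and 18.5 FPKM and cellobiose 11.8 and 16.9 FPKM. In both of these the 2 xylose libraries lay more than 3-fold apart, with replicate 1 the higher, and their standard errors for xylose minus cellobiose were 0.57 and 0.61 on the log2 scale. The remaining 2 lie on scaffold 4 and are given with that scaffold.

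Among the 10 highest levels on xylose, ratios ran from 13.1 down to 2.09. The gene on scaffold 92 at 105125-106373 had 892 and 375 FPKM on xylose, 94.9 and 102 FPKM on L-rhamnose and 171 and 146 FPKM on cellobiose. Scaffold 126 carried at 52376-55813 a gene with 548 and 275 FPKM on xylose, 154 and 223 FPKM on L-rhamnose and 207 and 179 FPKM on cellobiose. At 82464-83991 of scaffold 89, the levels were 486 and 714 FPKM on xylose, 173 and 131 FPKM on L-rhamnose and 244 and 328 FPKM on cellobiose. The last 2 had log2 differences from cellobiose of 1.22 ± 0.37 and 1.19 ± 0.27 and did not pass edgeR's threshold there. Of the 10 highest by level, 7 passed against both other sugars, and of the 10 highest by ratio, 9 passed; 3 genes stood on both lists.

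**Figure D2:**
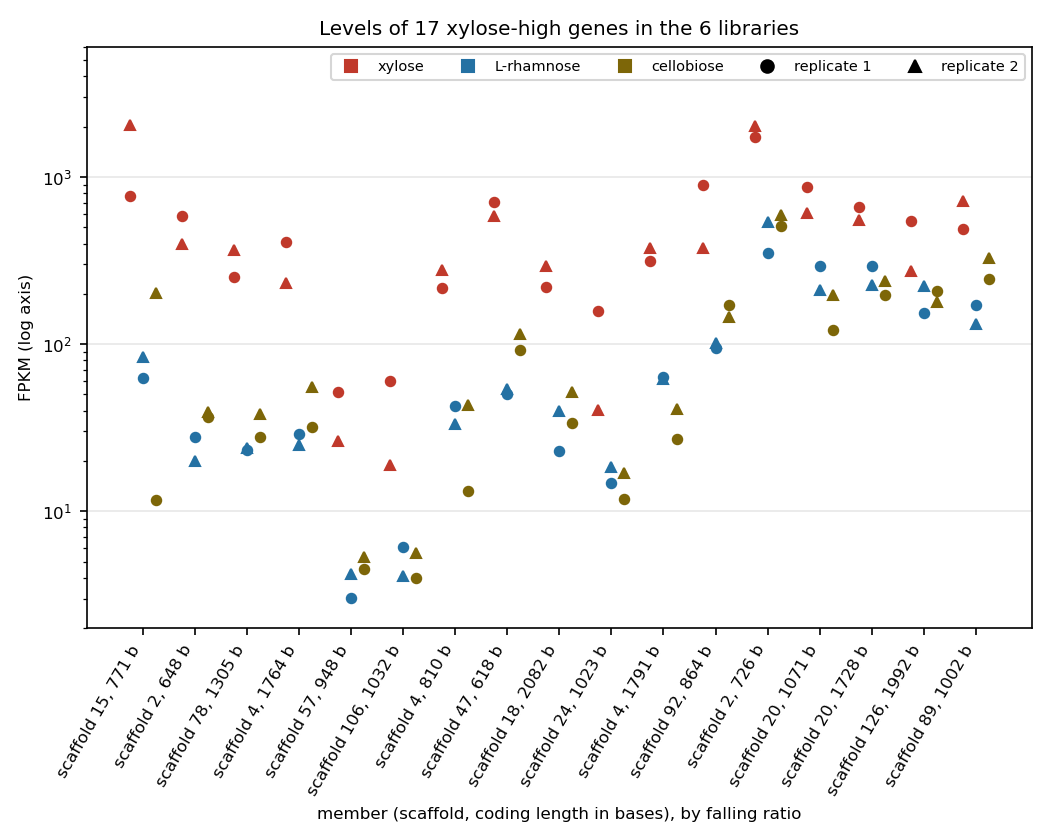
FPKM in each library (log axis) of the 17 xylose-high genes that are among the 10 highest by ratio or by xylose level, ordered by falling ratio from left to right. Circles are replicate 1 and triangles replicate 2; within each gene the red xylose points lie above all others, by 10.1 times at scaffold 2 with 648 coding bases and by little at the right end.

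How far the sugars were separated by single libraries differed widely within the set. The lower xylose library over the highest of the 4 other libraries had a median of 1.86, a minimum of 1.053 and a maximum of 10.1. In 41 genes it was at least 2, and in 12 at least 3. In 29 genes it was under 1.5, and in 3 genes, on scaffold 112 at 86084-88916, scaffold 11 at 447334-450158 and scaffold 30 at 169797-171887, it was under 1.1. For these 3, a small change in 1 library would end the separation.

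The 2 xylose libraries differed more in the xylose-high genes than in all models at the level floor, which include these genes and were not matched to them in level. They lay more than 2-fold apart in 31 of the 107, or 29.0%, against 549 of the 7266 models at the level floor, or 7.56%. The median ratio between them was 1.62 in the set and 1.18 in the 7266 models. Of the 31, replicate 1 was the higher in 25 and replicate 2 in 6. A mean over 2 libraries can pass a fold threshold through 1 high library, and the choice used that mean, so these shares describe the set. By the same rule turned to the other sugars, the own-sugar libraries lay more than 2-fold apart in 12 of 479 genes high on L-rhamnose, or 2.51%, and in 15 of 100 genes high on cellobiose, or 15.0%.

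The 5 genes with the greatest gap between the xylose libraries all had replicate 1 the higher, by at least 3.92 times. On scaffold 1 at 804507-806510, xylose gave 143 and 22.5 FPKM, L-rhamnose 8.93 and 13.1 FPKM and cellobiose 14.95 and 19.99 FPKM. A gene further along scaffold 1 at 2068022-2071750 had 38.9 and 6.36 FPKM on xylose, 4.85 and 5.07 FPKM on L-rhamnose and 2.59 and 5.14 FPKM on cellobiose. In both, xylose replicate 2 stood little above the highest other library. The gene on scaffold 6 at 466799-467718 had 52.1 and 10.1 FPKM on xylose, 5.74 and 3.17 FPKM on L-rhamnose and 2.63 and 7.77 FPKM on cellobiose. On scaffold 65 at 17528-18584, the levels were 161 and 39.4 FPKM on xylose, 32.6 and 7.83 FPKM on L-rhamnose and 24.1 and 2.19 FPKM on cellobiose, and all 3 sugars had wide replicates. The fifth is the gene on scaffold 24 given above, the only one of these 5 that passed edgeR's threshold against both other sugars.

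**Figure D3:**
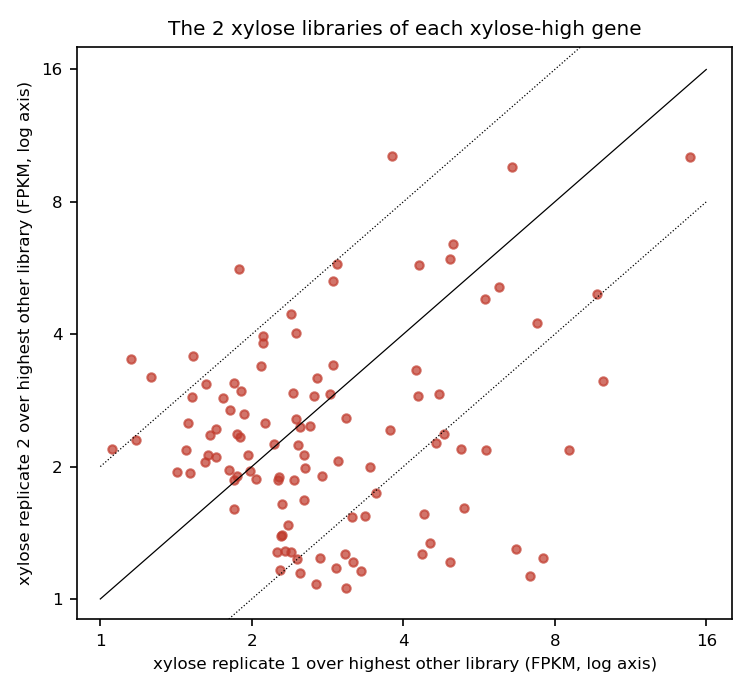
FPKM of xylose replicate 1 (x axis) and of xylose replicate 2 (y axis), each over the highest of the 4 other libraries, on log axes, 1 point per xylose-high gene. The solid line marks equal libraries and the dotted lines a 2-fold difference; 25 points lie below the lower dotted line, many of them close to 1 on the y axis, and 6 above the upper one.

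Cellobiose replicate 2 stood above cellobiose replicate 1 in 86 of the 107 genes, or 80.4%, against 50.3% of the 7266 models at the level floor. The median ratio of cellobiose replicate 2 to replicate 1 was 1.36 in the set and 1.0 in the 7266 models. They lay more than 2-fold apart in 16 genes, or 15.0%, against 2.31% of the 7266. The L-rhamnose libraries lay more than 2-fold apart in 2 genes, or 1.87%, against 0.950%. Among the genes high on L-rhamnose by the same rule, cellobiose replicate 2 was the higher in 24.6% of 479, and among those high on cellobiose in 65.0% of 100. Many of the xylose-high genes thus stood higher in 1 cellobiose library than in the other, in the direction of xylose, and the part of that library in each ratio to cellobiose was not tested beyond leaving it out. Applying the rule without cellobiose replicate 2 chose 158 genes, 94 of them among the 107, and without cellobiose replicate 1 it chose 74, with 71 among the 107.

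**Figure D4:**
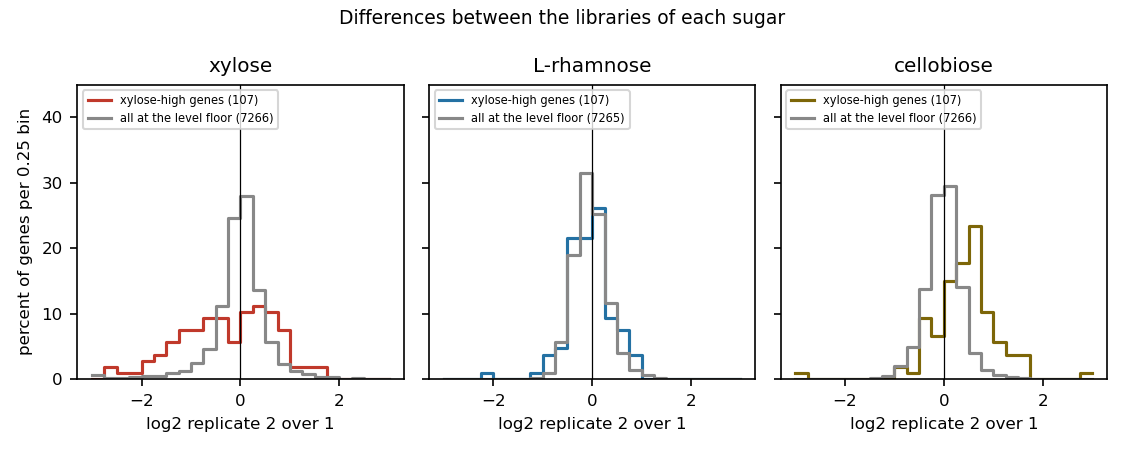
Percent of genes per bin of 0.25 by log2 ratio of replicate 2 to replicate 1, for xylose, L-rhamnose and cellobiose, in the xylose-high genes (coloured) and in all models at the level floor (grey); log2 ratios beyond 3 on either side are drawn in the outermost bins and models with a 0 are left out. The coloured xylose curve is wider than the grey one, the L-rhamnose curves lie close together and the cellobiose curve is moved to the right, with a median ratio of 1.36.

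The rule was also applied with 1 xylose library left out, and the genes it then chose were looked up in the unused library. When the rule was applied without xylose replicate 1, it chose 98 genes, of which 78 were among the 107. In the unused replicate 1, 63 of the 98, or 64.3%, stood at least 2 times above the higher other sugar, against 3.80% of the models at the level floor. There 94 of the 98, or 95.9%, lay above all 4 other libraries, against 24.1% of the models, with a median ratio of 2.27 where the library used for the choice gave 2.64. Applied without xylose replicate 2, the rule chose 190 genes, of which 92 were among the 107. In the unused replicate 2, 63 of the 190, or 33.2%, reached 2 times, against 1.91% of the models, and 117, or 61.6%, lay above all 4 others, against 19.3%. Their median ratio was 1.41 where the library used gave 2.68, and 62 of the 190 stood below the higher other sugar. The L-rhamnose and cellobiose libraries were used both times, and genes chosen to be low in them stand above models in general in part by construction, so these shares describe the choice and support nothing.

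The spread between libraries was set against the differences with edgeR's quasi-likelihood test over all 12667 genes tested, with Benjamini-Hochberg adjustment and a threshold of 0.05. All 107 genes were tested. The median log2 difference was 1.75 for xylose minus cellobiose, with a range of 1.15 to 3.83 and a median standard error of 0.34. For xylose minus L-rhamnose it was 2.12, with a range of 1.18 to 4.51 and a median standard error of 0.34. Against cellobiose 64 of the 107 passed, beside 1.66% of all genes tested that were called higher on xylose. Against L-rhamnose 104 of the 107 passed, beside 15.6% of all genes tested. The same 64 passed against both, beside 1.13% of all genes tested. Since the rule used these contrasts, nothing is read from the 3 counts, nor from whether a single gene of the set passed.

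These counts depended on single libraries, and so did the number of all genes called. Without either cellobiose library the count against cellobiose fell, at median log2 differences of 1.54 without replicate 1 and 1.97 without replicate 2. It also fell without L-rhamnose replicate 1 or replicate 2, at medians of 1.734 and 1.735. With DESeq2 on all 6 libraries it was 98. The count against L-rhamnose fell without L-rhamnose replicate 1, at a median log2 difference of 2.10, and without replicate 2, at 2.04. A sugar left with 1 library is assumed in these fits to vary like the others. In each fit named here, the number of all genes called moved in the same direction as the count of the set. With DESeq2, 3.70% of all genes tested were called above cellobiose, beside 1.66% in edgeR. Without either xylose library, the count against cellobiose rose, both in the set and over all genes tested.

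The 64 genes that passed against both and the 43 that did not differed in how close their xylose libraries lay. The 64 had a median ratio between the xylose libraries of 1.35, and 9 of them lay more than 2-fold apart. The 43 had a median of 2.08, and 22 lay more than 2-fold apart. Their median ratios of xylose to the higher other sugar were 2.93 for the 64 and 2.37 for the 43. The test weighs the spread between libraries, so this split follows in part from its construction.

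Between L-rhamnose and cellobiose, which the rule holds under 2-fold apart, 11 of the 107 passed edgeR's threshold, beside 22.0% of all genes tested. On L-rhamnose 9 of them were lower and 2 higher than on cellobiose, and the median log2 difference of the set was -0.33 for L-rhamnose minus cellobiose. Of the 2 higher on L-rhamnose, 1 lies on scaffold 4 at 503675-506676 and 1 on scaffold 53 at 51298-54552. The gene on scaffold 53 had 301 and 250 FPKM on xylose, 134 and 132 FPKM on L-rhamnose and 69.3 and 71.1 FPKM on cellobiose, a graded order with no overlap. The count of 11 rose without either xylose library and fell without any of the L-rhamnose or cellobiose libraries. With the replicate number as a block it was 4, beside 12.6% of all genes tested. With DESeq2 on all 6 libraries it was 16, beside 21.9%. The number of all genes called also rose without either xylose library. It fell without any of the L-rhamnose or cellobiose libraries.

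The thresholds cut through a continuous range. Just inside the fold of 2 stood genes on scaffold 201 at 13574-15017, with a ratio of 2.008, scaffold 12 at 153176-156047, with 2.023, and scaffold 104 at 16384-20232, with 2.023. Just outside were models on scaffold 2 at 102074-103534, with 1.969, scaffold 10 at 245399-246011, with 1.965, and scaffold 62 at 68137-72914, with 1.959. The model on scaffold 10 had mean levels of 1192 FPKM on xylose, 606 FPKM on L-rhamnose and 546 FPKM on cellobiose, more than all but 2 of the 107 on xylose. In all, 656 models missed the rule by the fold alone, 43 by the limit between the other sugars, 26 by the separation of libraries and 8 by the level.

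Nearest to the level of 10 were genes on scaffold 107 at 60603-62498, with 11.5 FPKM + 1 on xylose, scaffold 55 at 140449-142558, with 13.1, and scaffold 236 at 10459-12440, with 13.2. Models on scaffold 88 at 25915-27173, with 9.55, scaffold 66 at 36401-37404, with 9.35, and scaffold 15 at 256265-256865, with 8.50, stayed out. At the limit for the other sugars, genes with 1.997-fold, 1.982-fold and 1.982-fold between cellobiose and L-rhamnose were kept on scaffold 16 at 187617-189049, scaffold 39 at 223521-225866 and scaffold 67 at 116458-118331. Models with 2.009-fold, 2.014-fold and 2.061-fold were left out on scaffold 4 at 315775-317269, scaffold 22 at 325276-326187 and scaffold 90 at 126381-127591. The one on scaffold 22 had means of 1984 FPKM on xylose, 488 FPKM on L-rhamnose and 984 FPKM on cellobiose, a higher xylose level than any of the 107. Of the 60 models removed at this step, cellobiose was the higher of the other 2 sugars in 58 and L-rhamnose in 2.

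The structural part of the rule also left out models that met every level condition. There were 33 of them, 13 with reads shared between models, 15 with short coding sequence, 7 with a single exon and 2 on the scaffolds left out, where 1 model can have several of these features. Their ratios ran from 2.01 to 35.3 with a median of 3.09, and 2 of them lay above the greatest ratio of the set. The highest mean among them on xylose was 2894 FPKM. The set of 107 thus does not hold the strongest difference of the catalog.

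In structure the xylose-high genes were close to other models at the level floor. Their coding length had a median of 1251 bases, with quartiles at 935 and 1692 bases and a range of 426 to 6867, against a median of 1260 bases in the 7159 other models. They had a median of 6 exons, as did the others, with 2 to 31 exons per gene. Of the 107, 11 had 2 exons, or 10.3%, against 9.64%. Annotated UTRs on both sides were present in 66 genes, or 61.7%, against 64.0%, and no UTR was annotated in 37 genes, or 34.6%, against 28.5%. The typical intron was 58 bases long, against 59 bases, and 54 genes lay on the plus strand.

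The 107 genes were spread over 70 scaffolds. A scaffold carried 1 gene of the set in 49 cases and 2 in 12, and 9 scaffolds carried 3 or more. Scaffolds 1 and 4 carried 5 each, scaffolds 3, 17 and 20 carried 4 each, and scaffolds 2, 53, 57 and 95 carried 3 each. On scaffold 4, with 343 models, 4 of the 5 lay within 45159 bases. Another gene of the set was found within 5 models for 14 of the 107, and 3 pairs were directly adjacent.

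The adjacent pair on scaffold 4 runs in the same direction, at 500998-503047 and 503675-506676, 627 bases apart. The first had 407 and 233 FPKM on xylose, 29.0 and 25.0 FPKM on L-rhamnose and 32.1 and 55.1 FPKM on cellobiose. The other had 314 and 375 FPKM on xylose, 63.3 and 61.7 FPKM on L-rhamnose and 27.1 and 41.0 FPKM on cellobiose. Although adjacent, they differed in which other sugar was the lower, and their ratios were 7.20 and 5.44. Log2 differences from cellobiose were 3.001 ± 0.37 and 3.46 ± 0.26, and from L-rhamnose 3.72 ± 0.38 and 2.61 ± 0.25.

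The pair on scaffold 20 is divergent, with 863 bases between 145660-148414 and 149278-151082, and both are among the 10 highest levels. The first had 665 and 556 FPKM on xylose, 293 and 227 FPKM on L-rhamnose and 196 and 240.2 FPKM on cellobiose. Its partner had 874 and 608 FPKM on xylose, 295 and 209 FPKM on L-rhamnose and 121 and 197 FPKM on cellobiose. In every library the partner was within 2-fold of the first, and xylose stood above both other sugars without overlap, with ratios of 2.34 and 2.93.

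On scaffold 33 the adjacent genes run in the same direction at 113157-114356 and 114743-115344, 386 bases apart. The first had 128 and 37.2 FPKM on xylose, 21.1 and 18.9 FPKM on L-rhamnose and 29.4 and 22.6 FPKM on cellobiose. The other had 100.1 and 35.6 FPKM on xylose, 13.5 and 14.7 FPKM on L-rhamnose and 22.8 and 12.5 FPKM on cellobiose. In both genes xylose replicate 1 stood far above replicate 2, and neither passed edgeR's threshold against both other sugars.

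Looser groups were looked for by a rule added after the positions were seen, which took at least 3 genes of the set with no more than 10 models from one to the next. It gave stretches on 3 scaffolds. On scaffold 4 the stretch from 500998 to 546156 held 16 models, 4 of them in the set. The other 12 had a median ratio of xylose to the higher other sugar of 0.917, 9 of them below 1 and none at 2 or more. Besides the adjacent pair, it held genes at 520650-523533, with 99.2 and 48.5 FPKM on xylose, 20.3 and 17.2 FPKM on L-rhamnose and 21.4 and 19.2 FPKM on cellobiose, and at 544933-546156. This last gene had 216 and 277 FPKM on xylose, 42.4 and 33.2 FPKM on L-rhamnose and 13.2 and 43.1 FPKM on cellobiose, with log2 differences of 3.25 ± 0.50 from cellobiose and 2.85 ± 0.49 from L-rhamnose. High and ordinary models were therefore interleaved along the stretch.

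The genes at 503675-506676 and 520650-523533 of scaffold 4 were alike in structure, each with 15 exons and 1791 coding bases, and 8 of their 15 coding parts had equal length. Between them, at 517293-520473, lies a model with 16 exons and also 1791 coding bases that is not in the set. It had 88.5 and 116 FPKM on xylose, 88.0 and 75.5 FPKM on L-rhamnose and 37.2 and 41.6 FPKM on cellobiose, a ratio of 1.25. Models of equal coding length at this place thus had different ratios, and their expected counts were whole in all 6 libraries, so no fractional division of reads between them was recorded. No sequence was available to compare them.

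**Figure D5:**
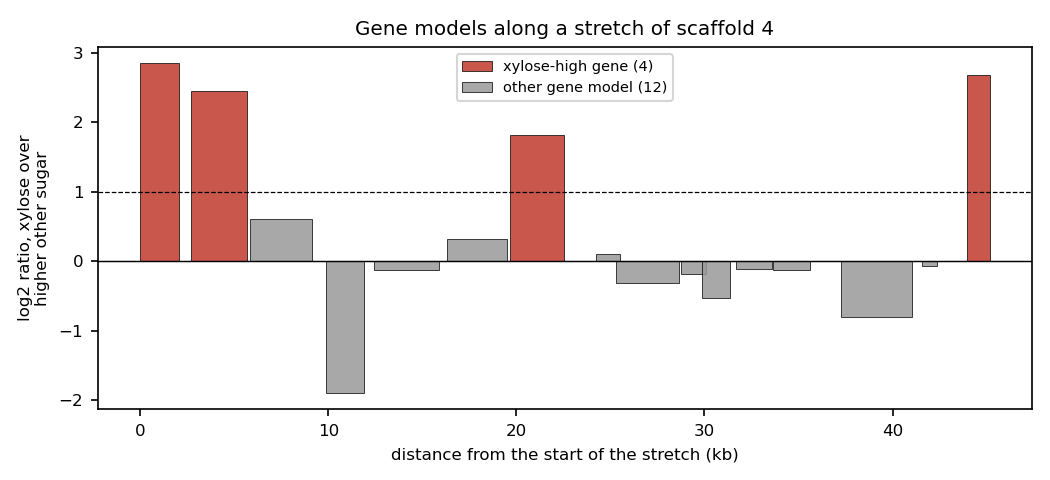
Log2 ratio of xylose to the higher other sugar in mean FPKM + 1 (y axis) of the 16 gene models along 45 kb of scaffold 4, by distance from the start of the stretch in kb; each bar is 1 model and is as wide as the model. The 4 xylose-high genes (red) stand above the dashed line at a ratio of 2, and the 12 other models (grey) lie below it, 9 of them below 0.

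On scaffold 17 the stretch from 323021 to 351417 held 12 models with 3 genes of the set, and on scaffold 53 that from 41881 to 60495 held 6 models with 3. The other models there had median ratios of 0.922 and 1.19, with none at 2 or more. On scaffold 53 the genes at 41881-44558 and 58872-60495 had 401 and 276 FPKM and 56.0 and 32.5 FPKM on xylose. On L-rhamnose they had 145 and 104 FPKM and 11.9 and 14.8 FPKM, and on cellobiose 91.6 and 116 FPKM and 8.76 and 16.3 FPKM. Their ratios were 2.71 and 3.14, so that a large difference in level went with like ratios.

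The models directly beside the xylose-high genes were taken for their place, but those that met the rule themselves are in the set and are left out here. There were 206 such models, of which 179 were tested. They are set beside all genes tested and beside the 12560 tested genes outside the set. Higher on xylose than on cellobiose were 4, or 2.23%, beside 1.66% of all genes tested and 1.16% of those outside the set. Against L-rhamnose there were 42, or 23.5%, beside 15.6% and 14.9%. Against both there were 3, or 1.68%, beside 1.13% and 0.629%. At least 2 times above both other sugars in mean FPKM + 1 were 6, or 3.35%, beside 2.10% and 1.27%. The median log2 difference of the 179 was 0.13 for xylose minus cellobiose and 0.18 for xylose minus L-rhamnose, against 0.01 and -0.01 for all genes tested. With the edgeR fit used so far, all 4 shares of the neighbours stood above both backgrounds, on counts of 3 to 6 models except against L-rhamnose. The difference was not tested, and against cellobiose it depended on the fit. Other neighbours were called lower on xylose, 2 of them against cellobiose and 22 against L-rhamnose. In each alternative fit that follows, the number of all genes called moved in the same direction as the neighbours' count. Without either L-rhamnose library the count of 42 fell. The count of 4 rose without either xylose library and fell without either L-rhamnose library or without cellobiose replicate 1. With all 6 libraries it was 14 of 202 models with DESeq2, beside 3.70% of all genes tested. With the replicate number as a block it was 2 of 179, beside 1.12%. With limma on log2(FPKM + 0.1) it was 2 of 179, beside 1.13%. In these last 2 fits the neighbours' share did not exceed that of all genes tested.

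By arrangement, the 179 tested models stood in 181 places beside a gene of the set, since 2 of them lie beside 2 such genes. All 4 models called above cellobiose lay on the same strand as the gene of the set, where there were 104 places. Convergent places numbered 43 and divergent ones 34, so same-strand places were the most numerous. The same counts were not taken over the whole catalog, and no link to the arrangement is read from those given here. Models called above L-rhamnose filled 26 of the same-strand places, 7 of the convergent and 10 of the divergent. The median log2 difference from L-rhamnose was 0.23 over same-strand, -0.10 over convergent and 0.35 over divergent places.

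The 6 neighbours at 2 times or more missed the rule for named reasons. Next to gene_1718 lies a single-exon model of 330 coding bases on scaffold 2 at 1040118-1040614, with 645 and 910.5 FPKM on xylose, 478 and 288 FPKM on L-rhamnose and 220.3 and 381 FPKM on cellobiose. Its span overlaps that of gene_1718 on the same strand. On scaffold 65 at 21030-21858, a model had 106 and 22.1 FPKM on xylose, 0.29 and 0 FPKM on L-rhamnose and 0.26 and 3.18 FPKM on cellobiose. That is a ratio of 23.9, greater than any in the set, and it was left out because the other sugars were 2.38-fold apart. Beside the divergent pair of scaffold 20, the model at 152497-153170 had 92.3 and 64.4 FPKM on xylose, 8.87 and 6.49 FPKM on L-rhamnose and 13.1 and 31.6 FPKM on cellobiose, and the one at 142452-144694 had 88.6 and 20.1 FPKM on xylose, 19.2 and 13.1 FPKM on L-rhamnose and 21.5 and 26.9 FPKM on cellobiose. In the model at 152497-153170 the other sugars were 2.69-fold apart, and in the one at 142452-144694 xylose replicate 2 lay below both cellobiose libraries. The model on scaffold 104 at 12826-14142 had 53.6 and 10.6 FPKM on xylose, 4.26 and 4.51 FPKM on L-rhamnose and 4.83 and 13.1 FPKM on cellobiose, and also lacked the separation. On scaffold 119 a single-exon model at 73771-74816 stands between 2 genes of the set, with 33.1 and 8.96 FPKM on xylose, 1.1 and 2.78 FPKM on L-rhamnose and 7.57 and 9.72 FPKM on cellobiose.

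Spans of 21 of the 107 genes overlap a neighbouring model, 14 of them a model on the other strand. In 0 of the 107 did coding bases overlap, and the lengths behind FPKM hold coding bases. Whether counting used strand is not given in the sources used here. Among the overlapping neighbours 1 had a ratio of 2 or more, the one beside gene_1718.

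Set beside the same rule turned to the other sugars, the xylose-high genes were fewer than those high on L-rhamnose and close in number to those high on cellobiose. The rule gave 107 genes on xylose, 479 on L-rhamnose and 100 on cellobiose. Their median ratios were close, at 2.66 on xylose, 2.56 on L-rhamnose and 2.71 on cellobiose. Ratios of at least 5 were reached by 12 genes on xylose, 56 on L-rhamnose and 19 on cellobiose, and the greatest were 13.1 on xylose, 24.2 on L-rhamnose and 62.7 on cellobiose. The median level on the own sugar was 87.4 FPKM for xylose, 46.4 FPKM for L-rhamnose and 58.0 FPKM for cellobiose. The 3 sets share libraries, and no test was made between them.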

How the data were processed

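Total RNA of mycelium was measured in 6 libraries, 2 per sugar. The submitters' processing notes list Bowtie2, HISAT and RSEM without versions or settings, and the genome build is not given in the sources used here. The authors deposited, per library, an RSEM expected count per gene model and an FPKM value. Expected counts are estimated numbers of reads and need not be whole. Their lengths, deposited beside them, equalled the summed coding parts of the deposited gene models in 100% of 14466 entries, so reads wholly in UTRs may not enter the values. Within each library, FPKM followed the count over length less 36 bases. Positions are those of the deposited gene models of this strain. Models absent from a table were taken as 0.

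The members and all lists were chosen with earlier results of these data known. Expected counts were called whole within 1e-06 and were rounded for the tests. With edgeR 4.0.16 in R 4.3.3 (TMM, filterByExpr, glmQLFit, glmQLFTest), 12667 of 14443 genes with a count were tested in 1 fit of 6 libraries without covariates, with Benjamini-Hochberg adjustment over all of them. The fit left 3 residual degrees of freedom and gave a common biological coefficient of variation of 0.2183. Standard errors of its log2 differences were derived as the absolute difference over the square root of the test's F statistic. Alternatives used DESeq2 1.42.0, limma 3.58.1, other scalings and filters, and fewer libraries. Ratios used a pseudocount of 1 FPKM. Libraries of 1 sugar differed beyond counting noise (chi-square per degree of freedom 14.8 to 53.8) and were not one library deposited repeatedly.

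By identifier, the member with the highest xylose level and the one with the greatest ratio were named. By position, the 10 highest by each, the 3 on either side of each threshold, adjacent pairs and the 5 with the widest xylose libraries were named, and other genes were singled out after their values were seen. Of 12497 genes in a RefSeq table of strain LYAD-421 SS1, 0 could be matched to members, so planned lists by product name could not be formed.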

Additional observations from a re-analysis of the deposited data

How the results depend on the processing

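The number of genes chosen was 212 with a fold of 1.5 and 43 with a fold of 3, against 107. It was 102 with FPKM + 0.1, 100 of them shared, 122 after rescaling by TMM, 103 of them shared, and 74 to 190 without 1 library each. The count called above cellobiose, 64, was 98 with DESeq2, 24 in a fit of the 2 sugars compared, and 10 to 91 without 1 library each. The count called above L-rhamnose, 104, was 36 to 104 without 1 library each. The count between L-rhamnose and cellobiose, 11, was 21 in a fit of those 2 sugars and 0 to 25 without 1 library each, where the zeros in edgeR came with 16 to 18 genes at an unadjusted p under 0.05. Among neighbouring models, the count of 4 above cellobiose was 14 with DESeq2, 2 with limma on log2(FPKM + 0.1), 2 in a fit of the 2 sugars and 0 to 19 without 1 library each, the 0 with 16 at an unadjusted p under 0.05. The neighbours' count of 42 above L-rhamnose was 8 to 46 without 1 library each. The number of all genes called also shifted in these fits. The cause of these shifts was not tested.

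The median log2 difference from L-rhamnose, 2.12, was 1.84 with limma on log2(FPKM + 1), 1.89 with limma on log2(FPKM + 0.1) and 1.84 to 2.13 without 1 library each. With limma on log2(FPKM + 1), which changes both the test and the scaling, the median of all genes was -0.11 for xylose minus cellobiose and -0.15 for xylose minus L-rhamnose, against 0.01 and -0.01 in edgeR. The median difference from cellobiose, 1.75, ran from 1.51 to 1.97 in the 14 alternatives run. It moved each time by less than the spread between replicates. That spread was 0.305 for this contrast and 0.131 for the one with L-rhamnose. The wider spread is easier to stay within, so this does not make the difference from cellobiose the steadier one. Neither median and neither named gene changed sign, but the choice of the genes largely fixed this, so nothing is read from it.

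Deviations of same-numbered libraries from their sugar's mean were correlated across genes. The values were -0.09 between xylose and L-rhamnose, -0.12 between xylose and cellobiose and -0.20 between L-rhamnose and cellobiose. Such correlations cannot settle whether samples with the same replicate number were paired. With the replicate block the counts were 57 above cellobiose, 98 above L-rhamnose and 4 between L-rhamnose and cellobiose, and for neighbours 2 above cellobiose and 32 above L-rhamnose. With the cellobiose numbers crossed in the replicate block, an alternative chosen after seeing the data, they were 60, 99 and 11, and for neighbours 9 and 45.

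With 2 libraries per sugar, 1 wide pair can decide whether a gene passes, and totals of 7306517 to 8126006 counts limit the precision of genes near the lowest count of 8.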
